A study of Mus musculus with 6 samples.

Results

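Abundances of 10 genes were described that centre on Dtl (also known as Cdt2), the substrate receptor of a ubiquitin ligase built on cullin 4, in mouse kidney tubule cells. The 10 are Dtl, the ligase subunits Ddb1, Cul4a, Cul4b and Rbx1, the substrates Cdt1, Cdkn1a and Kmt5a, the sliding clamp gene Pcna, and Gmnn, the inhibitor of Cdt1. They are 10 of 11236 gene symbols in the table. Dtl was chosen by its own abundance, which was lower in tRF-Val than in NC, so its values are a description and carry no test. The other 9 genes were taken because of what their products do together with Dtl.

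The study compared 2 groups of BUMPT cells, an immortalised mouse line derived from the proximal tubule of the kidney. There are 3 libraries labelled NC and 3 labelled tRF-Val. The second label is short for tRF-Val-TAC-004, which is cut from a transfer RNA for valine, and the aim given is to find genes downstream of it in apoptosis. The labels do not say what NC stands for, or whether the fragment was added to the cells or blocked. They give no treatment time and no genetic change. Whether each library is a culture of its own is not said either, so a p-value here reflects the spread of the libraries, which may be technical.

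The ligase works as follows in vertebrate cells. Ddb1 links Dtl to a cullin 4 scaffold, and Rbx1 brings the ubiquitin-conjugating enzyme to the other end of the scaffold. Dtl reads a degron, a short stretch that marks a protein for degradation, only when that stretch is bound to PCNA on DNA, and the ligase then removes Cdt1, p21 and the histone methyltransferase encoded by Kmt5a during S phase and after DNA damage. Removal of Cdt1, together with its block by geminin (the product of Gmnn), keeps a replication origin from being licensed again in the same cell cycle. In injured kidney tubules p21, the product of Cdkn1a, is known as a brake on the cell cycle.

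All 3 substrates listed here encode this degron, and its coding bases are shown because they define the substrates of Dtl. The bases come from the GENCODE M21 transcripts (GRCm38), on the strand of each gene and written 5′ to 3′. The capitals mark the adjacent codons for threonine and aspartate. Together with a codon for lysine or arginine, here the last of each stretch, they set a degron apart from an ordinary PCNA-binding motif.
Cdt1, codons 3 to 14 of 557: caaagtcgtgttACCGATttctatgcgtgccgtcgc
Cdkn1a, codons 139 to 150 of 159: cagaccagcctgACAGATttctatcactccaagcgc
Kmt5a, codons 176 to 187 of 350: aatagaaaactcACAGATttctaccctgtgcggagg
The degron lies near the start of the Cdt1 protein, near the end of p21 and in the middle of the Kmt5a protein. It was present in each of the 3 listed transcripts of Cdkn1a and in each of the 3 listed transcripts of Kmt5a, so every listed transcript of these genes codes for a protein that carries it.

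Values are the deposited abundances, which the authors scaled to the library, added over the transcripts of a gene; they are not read counts, and the depth of the libraries is unknown. The sums over mouse transcripts were 387026 to 389158 in NC and 420640 to 444218 in tRF-Val. The library NC 3 stood apart from the other libraries of its group. Its gene values had a Pearson r across genes of 0.903 with NC 1 and 0.915 with NC 2, against 0.974 between NC 1 and NC 2, and mitochondrial transcripts made up 17.5% of its sum against 3.17% to 6.59% in the other 5 libraries. Fold changes are therefore also given without it, and with a correction for transcript length and GC content, where either turns the sign, ends or makes a call or moves the value by over 1.5 times. Of 8 markers of epithelial and renal epithelial cells fixed as a list, all 8 were listed (summed value 490 to 707 in NC and 814 to 859 in tRF-Val), whereas of 8 proximal tubule markers Aqp1 was the 1 listed, at 8.73 to 31.3 in NC and 17.6 to 25.8 in tRF-Val. Ptprc, the pan-leukocyte gene, was not listed, although 4 of 7 leukocyte markers were, with sums of 8.29 to 23.5 in NC and 34.1 to 40.9 in tRF-Val, mostly from Cd14. For fibroblasts 2 of 6 markers were listed (sums of 0.850 to 1.26 in NC and 1.01 to 1.76 in tRF-Val) and for endothelial cells 1 of 4, Cdh5 (6.25 to 8.03 in NC and 2.72 to 5.02 in tRF-Val). Their part in the results below was not tested.

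Dtl was present in every NC library and close to or at 0 in every tRF-Val library. Its value was 19.5 in NC 1, 18.6 in NC 2 and 16.8 in NC 3. It was 0.378 in tRF-Val 1 and was listed at 0 in tRF-Val 2 and tRF-Val 3. The groups did not overlap, and NC 3 held the lowest of the NC values, close to the other two. The log2 fold change, taken as tRF-Val less NC after adding 1 to each value, was -4.11; all fold changes here are of this kind. A value listed at 0 makes this fold depend on the constant added, and it was -6.77 with 0.1 and -9.08 with 0.01. Of the mouse transcripts used, 1083, 1110 and 2191 were listed at 0 in NC 1 to 3, and 1999, 3064 and 2580 in tRF-Val 1 to 3. The libraries with Dtl at 0 were thus those with the most zeros, and the part of this in the value of Dtl was not tested. In bulk libraries, fewer cells of a kind and less RNA per cell cannot be told apart.

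The Dtl gene lies on the minus strand at chr1:191537356-191575544 (GRCm38, ENSMUSG00000037474). Of 6 annotated transcripts, 1 was listed, ENSMUST00000027933, the single one annotated as protein coding. It has 15 exons and 4212 bases, of which 2190 encode 729 amino acids and 1878 lie in the 3′ UTR. Transcripts are listed only where the higher group mean reached 0.500, so the values say nothing of the other 5 at lower levels.

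Dtl starts 91 bases from its divergent neighbour Ints7, which encodes a subunit of the Integrator complex. The stretch between both starts is shown because any element in it is upstream of both genes. It is given as RefSeq has it (GRCm38.p6, chr1:191575545-191575635, minus strand, the strand of Dtl), with capitals for a CCAAT box, a CREB word and an E2F word.
Dtl and Ints7 shared upstream stretch: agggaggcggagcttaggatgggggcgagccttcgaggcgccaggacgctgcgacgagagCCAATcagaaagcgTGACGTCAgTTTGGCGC
The E2F word TTTGGCGC begins 8 bases before the start of Dtl, the CREB word TGACGTCA 17 bases before it and CCAAT 31 bases before it. Searched on both strands, TTTGGCGC was present in 0.514% of 32851 RefSeq windows that run from 250 bases before to 50 bases after a start. TGACGTCA was present in 1.79% of them and CCAAT in 37.4%. Among the 9 genes with a window, Cdt1 also held TTTGGCGC and Rbx1 held TTTCCCGC, another E2F word. Any of the 3 E2F words searched (the third was TTTCGCGC) was present in 1.84% of windows. A match of letters is a description and not a binding site.

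Ints7 was not ordered by group. Its values were 7.63, 7.45 and 4.73 in NC 1 to 3 and 2.09, 1.80 and 11.0 in tRF-Val 1 to 3. The highest and the lowest values both lay in tRF-Val, and the groups overlapped (log2 fold change -0.67, limma adjusted p = 0.467, and -0.32 with the length and GC correction). On the other side of Dtl the nearest listed gene was Ppp2r5a, a regulatory subunit of protein phosphatase 2A, 134083 bases away, with 20.4 to 22.2 in NC and 17.0 to 22.1 in tRF-Val (log2 fold change -0.14, adjusted p = 0.552).

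**Figure D1:**
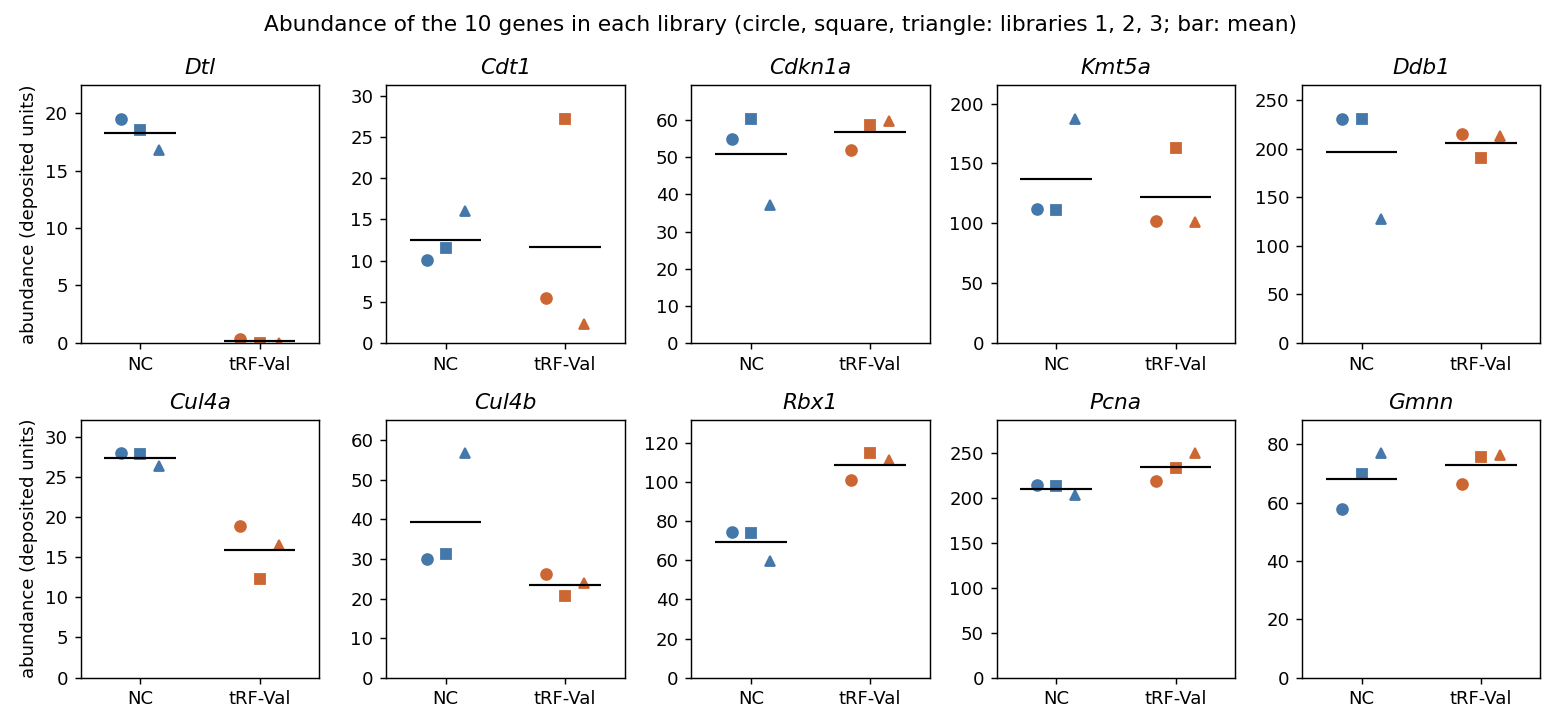
Each panel shows 1 gene, with the abundance in deposited units on a linear axis from 0, a point for each of the 3 NC and 3 tRF-Val libraries and a bar at the group mean. Dtl is at 16.8 to 19.5 in NC and at 0.378 or 0 in tRF-Val, while the other 9 genes are above 0 in all 6 libraries.

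None of the other 9 genes passed an adjusted p of 0.05 in the fit across all genes, in which 0.259% of 10405 genes did (27 genes, with 0.0577% passing as higher in tRF-Val and 0.202% as lower). At an unadjusted p under 0.05 there were 3 of the 9 (Cul4a, Cul4b and Rbx1), against 27.8% of all genes. The groups did not overlap for 4 of the 9, against 42.5% of all genes. Of these, 2 were higher in tRF-Val (Rbx1 and Pcna, against 20.3% of all genes) and 2 were lower (Cul4a and Cul4b, against 22.1%). Fold changes were positive for 5 and negative for 4. Without NC 3 Rbx1 was the 1 gene of the 9 that passed, against 5.71% of all genes. With 3 libraries in each group the smallest p of an exact permutation test is 0.1, and none was run.

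Ddb1, the adaptor that holds Dtl in the ligase, overlapped between groups. It was 230.7 in NC 1, 231.2 in NC 2 and 128.1 in NC 3, and 215.4, 190.6 and 212.9 in tRF-Val 1 to 3. NC 3 was far below the other 5 libraries, and it set the sign of the log2 fold change, which was 0.12 (SE 0.257, adjusted p = 0.780) with all libraries and -0.16 without NC 3, and also negative under quantile scaling (-0.17) and after rescaling without mitochondrial transcripts (-0.14). It was 0.32 with the length and GC correction. Ddb1 (chr19:10605327-10629819) overlaps the listed gene Tkfc on the opposite strand; the kit was stranded, but whether counting used the strand is not given in the sources used here.

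Both cullin 4 scaffolds had lower values in all 3 tRF-Val libraries than in any NC library, and neither passed the test. Cul4a (chr8:13105621-13147940) was 27.9, 27.8 and 26.3 in NC 1 to 3 and 18.9, 12.2 and 16.5 in tRF-Val 1 to 3. The group means were 27.3 ± 0.887 and 15.9 ± 3.38 (SD, n = 3 libraries in each group, as for all means here). The log2 fold change was -0.77 (SE 0.187, adjusted p = 0.0915), and over 16 other settings it stayed negative with an adjusted p of 0.0542 to 0.293. The gap between the groups, from 18.9 to 26.3, was wider than the spread within either group.

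Cul4b (chrX:38533274-38576196), the X-linked paralog, was 29.98 in NC 1, 31.3 in NC 2 and 56.7 in NC 3, and 26.1, 20.7 and 23.9 in tRF-Val 1 to 3. NC 3 was far above the other libraries, and without it the log2 fold change moved from -0.66 (SE 0.271, adjusted p = 0.178) to -0.37 (adjusted p = 0.108). It was -0.27 (adjusted p = 0.408) with the length and GC correction. The excess of NC 3 lay in 1 transcript. ENSMUST00000115118 was at 45.2 in NC 3, or 79.7% of the gene, against 1.42 and 1.29 in NC 1 and NC 2 and 0.269, 0 and 0.0359 in tRF-Val 1 to 3. The other listed transcript, ENSMUST00000016681, was 28.6, 30.004 and 11.5 in NC and 25.8, 20.7 and 23.8 in tRF-Val, with overlapping groups. The former encodes 970 amino acids and the latter 896, with the same last 100.

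Rbx1 (chr15:81466296-81476369), the RING subunit, had higher values in tRF-Val. It was 74.7, 74.0 and 59.9 in NC 1 to 3 and 100.9, 114.8 and 111.5 in tRF-Val 1 to 3. Every tRF-Val library was above every NC library, and the means were 69.5 ± 8.38 and 109 ± 7.23. The log2 fold change was 0.65 (SE 0.148), with a limma adjusted p of 0.0893 with all libraries and 0.0458 without NC 3, the 1 setting of 16 in which it passed. Rbx1 also serves other cullins, so its transcript is not specific to the ligase of Dtl.

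**Figure D2:**
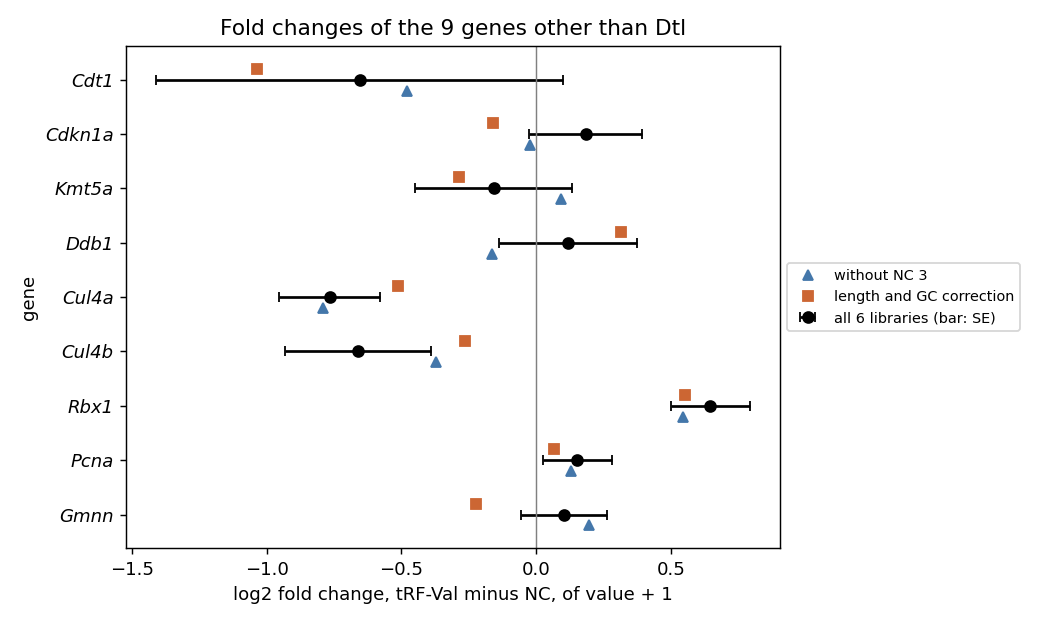
Log2 fold changes (tRF-Val minus NC, of value + 1) of the 9 genes other than Dtl: circles with bars give the fit on 6 libraries and its SE, triangles the fit without NC 3, and squares the fit after a correction of every library for transcript length and GC content. Cul4a (-0.77), Cul4b (-0.66) and Rbx1 (0.65) lie the farthest from 0 relative to their SE, while the signs of Cdkn1a, Kmt5a, Ddb1 and Gmnn differ between the fits shown.

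Cdt1, which loads the replicative helicase at origins and is the best known substrate of Dtl, had the largest SE of the 9 tested genes. It lies at chr8:122568015-122573554 and 1 transcript was listed. Its value was 10.1, 11.5 and 16.1 in NC 1 to 3. It was 5.46 in tRF-Val 1, 27.3 in tRF-Val 2 and 2.32 in tRF-Val 3. The highest and the lowest of the 6 values were both in tRF-Val, and 1 library set the fold: it was -0.66 (SE 0.756, adjusted p = 0.582) with all libraries, -1.53 without tRF-Val 2 and 0.019 without tRF-Val 3. With the length and GC correction it was -1.04. A difference between the groups was not detectable against that spread.

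Gmnn, whose product binds and blocks Cdt1, was 57.7, 69.8 and 77.0 in NC and 66.5, 75.8 and 76.5 in tRF-Val. The groups overlapped almost fully (log2 fold change 0.10, SE 0.158, adjusted p = 0.680), and the sign turned in 4 settings, to -0.22 at the lowest with the length and GC correction; without NC 3 it was 0.20. Cdt1 divided by Gmnn was 0.175, 0.165 and 0.209 in NC and 0.0821, 0.360 and 0.0304 in tRF-Val, so the ratio too was more spread in tRF-Val. The division of Gmnn (chr13:24751845-24761923) between its transcripts varied among libraries of a group. ENSMUST00000006898 was at 0.225, 0 and 13.8 in NC and at 31.9, 0 and 23.9 in tRF-Val, and ENSMUST00000110382 at 54.5, 59.6 and 59.5 in NC and 26.6, 74.2 and 47.1 in tRF-Val. Both encode the same 206 amino acids and differ in the 5′ UTR, so the split does not change the protein encoded.

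Cdkn1a, the p53 target that encodes the cyclin-dependent kinase inhibitor p21, was 54.9, 60.4 and 37.1 in NC and 51.9, 58.7 and 59.7 in tRF-Val. NC 3 was the low value and the groups overlapped (log2 fold change 0.18, SE 0.210, adjusted p = 0.578). The sign turned without NC 3 (-0.023), after rescaling without mitochondrial transcripts (-0.067) and with the length and GC correction (-0.16). The gene lies at chr17:29090976-29100727, its 3 listed transcripts encode the same 159 amino acids, and ENSMUST00000023829 held 88.5% to 99.7% of its value in each library.

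Kmt5a (chr5:124439930-124462308), which encodes the enzyme that monomethylates histone H4 at lysine 20, overlapped between groups as a gene. It was 111.5, 111.3 and 187.4 in NC and 101.7, 162.9 and 101.0 in tRF-Val. NC 3 and tRF-Val 2 were the high libraries of their groups (log2 fold change -0.16, SE 0.292, adjusted p = 0.740). The fold change was 0.091 without NC 3 and -0.28 with the length and GC correction.

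The main transcripts of Kmt5a separated the groups, in opposite directions. ENSMUST00000059580, with 8 exons and 350 codons, was 54.6, 57.2 and 39.8 in NC and 73.0, 143.6 and 79.8 in tRF-Val. ENSMUST00000198451, with 6 exons and 295 codons, was 52.0, 50.0 and 131 in NC and 25.5, 17.6 and 19.8 in tRF-Val. The groups did not overlap for either transcript. A minor transcript, ENSMUST00000100709 of 364 codons, was 4.23 to 16.2 in NC and 1.35 to 3.19 in tRF-Val.

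As a share of the gene, the 350-codon transcript was 49.0%, 51.3% and 21.2% in NC and 71.8%, 88.1% and 79.0% in tRF-Val. The 295-codon transcript was 46.7%, 44.9% and 70.1% in NC and 25.0%, 10.8% and 19.6% in tRF-Val. NC 3 was the extreme library, but NC 1 and NC 2 also lay apart from all 3 tRF-Val libraries. Of all 14374 transcript shares, 23.0% did not overlap between groups, and 5.38% did not overlap with group means at least 30 percentage points apart, as these are with all libraries (39.1 points higher and 35.4 points lower in tRF-Val). Without NC 3 the differences were 29.5 and 27.3 points, so the 30 points were reached through that library, although the groups still did not overlap. In the fit over 16320 transcripts the log2 fold changes were 0.90 (adjusted p = 0.209) for the 350-codon, -1.71 (SE 0.412, adjusted p = 0.138) for the 295-codon and -1.43 (adjusted p = 0.238) for the 364-codon transcript, so none passed. Without NC 3 the 295-codon transcript was at -1.26 with an adjusted p of 0.0527, and the 364-codon transcript was at -0.89. The 295-codon protein is contained in both of the others and shares their last 100 amino acids, so the transcripts differ at the start of the protein and not in the degron. The values are StringTie's division of reads among overlapping transcripts, per the submitters' processing notes, and no junction reads were used here to check it.

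**Figure D3:**
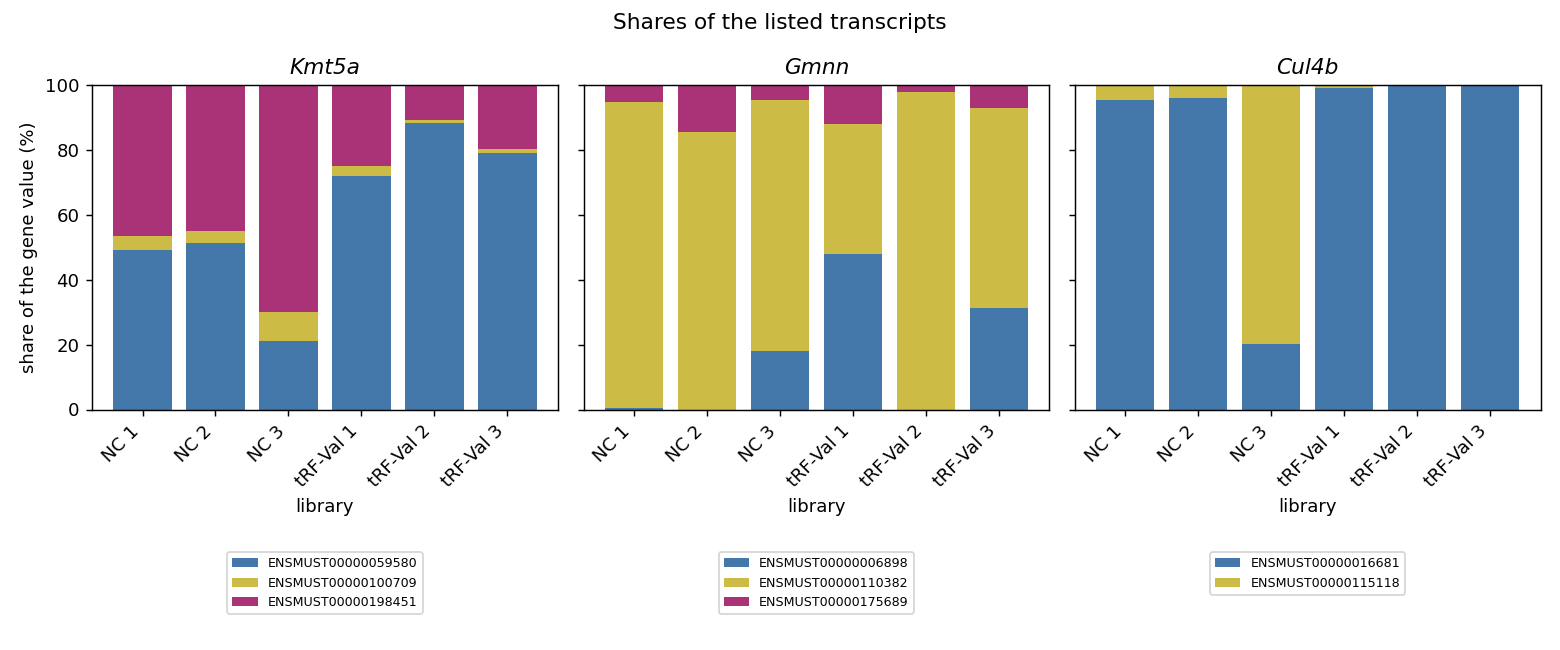
Stacked bars give the share (%) of each listed transcript in the value of Kmt5a, Gmnn and Cul4b for each of the 6 libraries. The 350-codon Kmt5a transcript (ENSMUST00000059580) holds 71.8% to 88.1% in tRF-Val and 21.2% to 51.3% in NC, whereas the Cul4b transcript ENSMUST00000115118 is large only in NC 3 (79.7%) and the Gmnn shares vary within both groups.

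In all, 17 transcripts of the 10 genes were listed. Of the 16 other than that of Dtl, 0 passed an adjusted p of 0.05 in limma, against 1.14% of all transcripts, and 5 had an unadjusted p under 0.05, against 19.4%. The groups did not overlap for 4 that were higher in tRF-Val, against 16.5% of all transcripts, and for 4 that were lower, against 17%, or 33.5% in either direction. These counts are not of independent members, since all listed Kmt5a transcripts, which divide a single gene's value, are among them. ENSMUST00000122348 of Cdkn1a (means 0.634 in NC and 1.40 in tRF-Val) reached the mean of 1 through tRF-Val. ENSMUST00000115118 of Cul4b reached it through NC 3 (45.2).

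Pcna, the clamp on which Dtl meets its substrates, was 214.8, 213.2 and 203.4 in NC and 219.0, 234.1 and 250.1 in tRF-Val. The groups did not overlap, with 214.8 as the highest NC and 219.0 as the lowest tRF-Val value (log2 fold change 0.15, SE 0.127, adjusted p = 0.448), and the sign turned under quantile scaling (-0.18) and after rescaling without mitochondrial transcripts (-0.10); it was 0.066 with the length and GC correction. The processed copy Pcna-ps2, which may share reads with Pcna (chr2:132249162-132253314), was 53.1, 58.8 and 64.2 in NC and 69.3, 92.8 and 106.6 in tRF-Val (log2 fold change 0.58, adjusted p = 0.130, and 0.18 with the length and GC correction). The sum of both was 268, 272 and 268 in NC and 288, 327 and 357 in tRF-Val, so the gene and its copy lay in the same direction.

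Around the 10 genes, 9 lists of related genes were compared in the same fit, 186 genes in all. None passed an adjusted p of 0.05 in limma. At an unadjusted p under 0.05 there were 14 higher and 38 lower, together 28% of the lists against 27.8% of all genes, and the median log2 fold change of all genes was 0.01. Without NC 3, 3 genes passed as higher (Anapc13, Cops9 and Ube2f) and 3 as lower (Rbl1, Tfdp1 and Trp53bp1), or 3.23% in either direction. Of all genes 2.73% then passed as higher and 2.97% as lower. Lists are therefore given by their counts, medians and the genes with the smallest p.

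**Figure D4:**
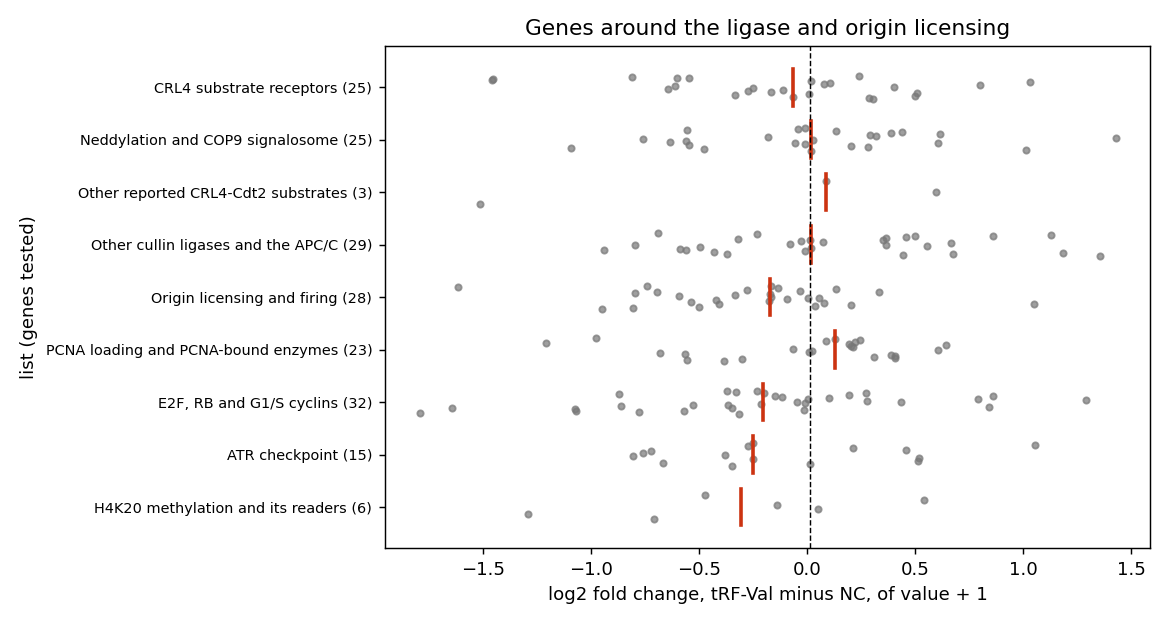
Each point is 1 gene, placed by its log2 fold change (tRF-Val minus NC, of value + 1) within its list; red bars are list medians and the dashed line is the median of all genes tested, 0.01. Points lie on both sides of 0 in every list, and list medians run from -0.30 (H4K20 methylation) to 0.13 (PCNA loading).

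A list of 25 genes held other substrate receptors of cullin 4 ligases and proteins that act with them. Of these, 12 had positive and 13 negative fold changes, with a median of -0.06 (-0.23 without NC 3 and 0.042 with the length and GC correction). None passed, and at an unadjusted p under 0.05 there were 1 higher and 3 lower, against 12.2% and 15.6% of all genes. Dcaf1 was 10.6 ± 3.48 in NC and 3.12 ± 0.619 in tRF-Val (log2 fold change -1.46, adjusted p = 0.0782). Brwd3 had a log2 fold change of -0.60, which was 0.00996 with the length and GC correction, and Dcaf11 had 1.03 with overlapping groups. Brwd3 reached the mean of 1 through NC (mean 1.89, against 0.893 in tRF-Val).

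Cullins need to be modified with the ubiquitin-like protein NEDD8 to be active, and the COP9 signalosome removes it again. Of 25 genes of this cycle, 13 were positive and 12 negative, with a median of 0.02 (-0.066 without NC 3 and 0.067 with the length and GC correction). There were 4 higher and 4 lower at an unadjusted p under 0.05, against 12.2% and 15.6% of all genes. Cops9, the small subunit of the signalosome, was 61.5, 61.3 and 35.1 in NC and 115, 141 and 165 in tRF-Val (log2 fold change 1.43, adjusted p = 0.0752, and 0.0382 without NC 3). With the length and GC correction its fold change was 0.73 (adjusted p = 0.0922). Ube2f, a NEDD8-conjugating enzyme, was 18.7, 18.6 and 38.7 in NC and 45.3, 50.5 and 51.9 in tRF-Val (log2 fold change 1.01, adjusted p = 0.112, and 0.0198 without NC 3). Dcun1d5 and Dcun1d4, which help NEDD8 transfer onto cullins, were at 0.61 and -0.63, the latter at -0.20 with the length and GC correction.

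Other ubiquitin ligases act on the same proteins, among them the SCF ligases and the anaphase-promoting complex, which removes geminin. Of 29 tested genes of these, 16 were positive and 13 negative, with a median of 0.02 (0.093 with the length and GC correction). At an unadjusted p under 0.05, 5 were higher and 6 lower, against 12.2% and 15.6% of all genes. Subunits of the anaphase-promoting complex lay in both directions. Anapc13 was 60.5 ± 4.08 in NC and 111 ± 8.13 in tRF-Val (log2 fold change 0.86, adjusted p = 0.0568, and 0.0353 without NC 3), but 0.20 with the length and GC correction. Anapc1 and Cdc27 were at -0.69 and -0.79, and at -0.19 and -0.23 with that correction.

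Of 28 tested genes of origin licensing and firing, the step that Dtl restrains through Cdt1, 8 were positive and 20 negative, with a median of -0.17 (-0.32 without NC 3 and -0.17 with the length and GC correction). None passed, and at an unadjusted p under 0.05 there were 0 higher and 9 lower, against 12.2% higher and 15.6% lower among all genes. Cdc6, which loads the helicase together with Cdt1, was 8.93, 9.002 and 9.75 in NC and 6.18, 3.99 and 5.43 in tRF-Val (log2 fold change -0.74, adjusted p = 0.0954, and -0.41 with the length and GC correction). Topbp1, needed to fire origins and to activate ATR, was 46.4 ± 6.42 in NC and 26.2 ± 4.76 in tRF-Val (-0.81, adjusted p = 0.0893, and -0.40 with that correction). Kat7, an acetyltransferase at origins, was at -0.69 (adjusted p = 0.105). The helicase subunits Mcm2 to Mcm7 themselves were at -0.17, -0.33, -0.59, -0.16, 0.0067 and 0.058, with a smallest adjusted p of 0.112. Without NC 3 they were at -0.46, -0.29, -0.56, -0.35, -0.062 and -0.098, so that Mcm6 and Mcm7 turned sign and Mcm2 and Mcm5 moved away from 0. With the length and GC correction Mcm4 was at -0.26, Mcm6 at 0.18 and Mcm7 at -0.0017.

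Of 23 genes for loading PCNA and for enzymes that bind it, 15 were positive and 8 negative, with a median of 0.13 (0.058 with the length and GC correction). There were 0 higher and 4 lower at an unadjusted p under 0.05, against 12.2% and 15.6% of all genes. Dnmt1, the maintenance DNA methyltransferase, was 46.1, 46.3 and 50.6 in NC and 30.3, 14.7 and 18.03 in tRF-Val (log2 fold change -1.21, adjusted p = 0.0892). Atad5, which unloads PCNA, was at -0.98 and Rfc1, the large subunit of the clamp loader, at -0.57. They were at -0.41 and -0.14 with that correction.

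E2F factors drive transcription of Dtl and Cdt1 at the start of S phase, held back by proteins of the RB family. Of 32 tested genes of this group, 10 were positive and 22 negative (median -0.20). There were 2 higher and 7 lower at an unadjusted p under 0.05, against 12.2% and 15.6% of all genes. Tfdp1, a dimer partner of E2F factors, was 112, 123 and 59.2 in NC and 28.0, 20.4 and 32.0 in tRF-Val. NC 3 was the lowest of the NC libraries but above all of tRF-Val. Its log2 fold change was -1.79 (limma adjusted p = 0.0715), and without NC 3 -2.12 (adjusted p = 0.0274). Rbl1, which encodes the RB family protein p107, was 11.8 ± 1.68 in NC and 5.10 ± 0.928 in tRF-Val (-1.07, adjusted p = 0.0692, and 0.0458 without NC 3). Rbl1 was at -0.55 (adjusted p = 0.0837) with the length and GC correction. E2f8, a repressor of E2F targets, was 14.8 ± 1.82 in NC and 7.77 ± 1.65 in tRF-Val (-0.86, adjusted p = 0.0893).

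Of 15 genes of the ATR checkpoint, which responds to stalled forks, 6 were positive and 9 negative, with a median of -0.25 (-0.056 with the length and GC correction). At an unadjusted p under 0.05, 2 were higher and 2 lower, against 12.2% and 15.6% of all genes. Clspn, the adaptor that lets ATR activate the kinase encoded by Chek1, was 20.02 ± 4.09 in NC and 11.3 ± 1.37 in tRF-Val (log2 fold change -0.76, adjusted p = 0.0940). Chek1 was at -0.72 (adjusted p = 0.139). With that correction they were at -0.43 and -0.29. Atrip, the partner of ATR, was at 0.892, 0.0680 and 0 in NC and 2.47, 1.09 and 1.51 in tRF-Val (1.06, adjusted p = 0.114). It is among the 2 higher genes, but reached the mean of 1 through tRF-Val (mean 1.69, against 0.320 in NC).

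Of 6 tested genes that act on or read the H4K20 mark set by Kmt5a, 2 were positive and 4 negative, with a median of -0.30 (-0.00031 without NC 3 and -0.045 with the length and GC correction). At an unadjusted p under 0.05, 0 were higher and 2 lower, against 12.2% and 15.6% of all genes. Phf8, a demethylase of this mark, was 1.4995, 2.37 and 3.13 in NC and 0.566, 0.266 and 0.204 in tRF-Val (log2 fold change -1.29, adjusted p = 0.0726). It reached the mean of 1 through NC (mean 2.33, against 0.345 in tRF-Val) and was not in the fit without NC 3. Trp53bp1, a reader of the dimethylated form, was 3.25 ± 0.202 in NC and 1.61 ± 0.223 in tRF-Val (-0.70, adjusted p = 0.0887, and 0.0494 without NC 3). Trp53bp1 was at -0.23 (adjusted p = 0.313) with that correction. Kmt5b, which extends the mark, was at -0.47 with overlapping groups, at -0.15 without NC 3 and at -0.18 with that correction.

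Among 3 other reported substrates of Dtl, Tdg, a DNA glycosylase, was 7.79, 5.78 and 15.2 in NC and 3.54, 1.16 and 3.22 in tRF-Val (log2 fold change -1.51, adjusted p = 0.108). Pold4, a subunit of DNA polymerase delta, was at 0.60 (adjusted p = 0.262), at 0.25 without NC 3 and at -0.15 with the length and GC correction. Ercc5, a repair nuclease, was at 0.088 (adjusted p = 0.735), and at 0.17 and 0.40 in these 2 settings. Together with Cdt1, Cdkn1a and Kmt5a, no substrate transcript passed the test in either direction. The proteins, on which the ligase acts, were not measured.

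Genes whose pattern was most like that of Dtl were ranked by Pearson r over the 6 libraries on the log2(value + 1) scale; since Dtl is nearly a contrast of the groups, such genes have groups that lie apart and little spread within them. Mmgt1 (r = 0.999) was 16.3, 16.2 and 16.02 in NC and 11.9, 11.7 and 11.4 in tRF-Val; its log2 fold change of -0.44 became 0.058 with the length and GC correction. Ctbs (r = 0.999) was 4.13 to 4.37 in NC and 2.27 to 2.50 in tRF-Val. F3, which encodes tissue factor (r = 0.997), was 17.8, 16.9 and 17.5 in NC and 7.29, 6.82 and 7.30 in tRF-Val. Hlcs (r = 0.998) and Irs1, the insulin receptor substrate (r = 0.997), were at 2.61 to 2.80 and 5.36 to 5.77 in NC and at 1.63 to 1.74 and 2.74 to 3.04 in tRF-Val. The length and GC correction moved the log2 fold changes of Ctbs, Hlcs and Irs1 from -0.63, -0.47 and -0.78 to -0.27, -0.16 and -0.36. That of F3 was -1.18, and -1.20 with the correction. None of these 5 genes had values near 0 in tRF-Val as Dtl did.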

How the data were processed

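RNA sequencing of 3 NC and 3 tRF-Val libraries was compared, grouped by sample title. The submitters' processing notes name cutadapt, StringTie and HISAT2 2.1.0, and GRCh38, a human build; no annotation release or setting is given in the sources used here. The labels' protocol text speaks of joint tissue and the sample labels of a kidney line; the latter were followed. The deposited signal values are transcript abundances, scaled by the authors within each library, as FPKM or TPM; which of them is not stated. They are not counts, which leaves count models out, and no interval from depth can be given.

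Of 30813 listed transcripts, 21603 have mouse IDs and 9210 human IDs, which were not used. Of the mouse IDs 21558 matched GENCODE M21 (GRCm38) without their version and 45 did not. Values were added per symbol (11236 symbols, 7 of them over more than 1 gene ID). The 10405 genes, and separately the 16320 transcripts, with a mean of at least 1 were fitted on log2(value + 1) with limma 3.58.1 (R 4.3.3, trend and robust moderation, no covariate), with two-sided p-values adjusted by Benjamini-Hochberg at 0.05. Shares, ratios and sequences were computed in Python 3.11.15 with pandas 2.3.3 and Biopython 1.88. On simulated data for this comparison over 10405 genes, changes of 1, 2 and 3 (log2) were recovered in 50.7%, 100% and 100% of the changed genes, with 7 false calls. The simulated noise was normal, with an SD set by the level of a gene, and no simulated library stood apart as NC 3 does. The share recovered in the measured libraries can therefore not be read from these values.

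The 10 genes, the lists and the alternatives were chosen with earlier results of these data known. Named are the 10 genes, up to 3 genes with the smallest p of each list, the 6 genes most like Dtl and its nearest listed neighbours; Ube2f and the Mcm genes were added after their values were seen. One of the 6 is not named here. RefSeq promoter windows matched 9 of the 10 genes. Alternatives were smaller pseudocounts (0.1 and 0.01), no filter or a mean of 5, median and quantile scaling, rescaling without mitochondrial transcripts, a loess correction (span 0.3) of every library for transcript length and GC content, limma without trend or robust moderation, the replicate number as a block and each library left out.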

Additional observations from a re-analysis of the deposited data

How the results depend on the processing

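Depth is unknown and 1 library decides several values, so low abundances and the transcript division limit what can be read. The count of the 9 genes that passed was 0 except without NC 3, where it was 1, and leaving out single libraries gave 0 to 1. The count over the 186 genes of the lists was 0, but 2 after rescaling without mitochondrial transcripts, which moved the median of all genes to -0.20, and 0 to 6 with single libraries left out (6 without NC 3, 1 without tRF-Val 1). For the 16 transcripts it was 0 in each setting run; the length and GC correction was not run on transcripts. Dtl was at -6.77 and -9.08 with pseudocounts of 0.1 and 0.01 and at -3.68 with the length and GC correction. Over all genes 27 passed, 209 after the mitochondrial rescaling, 71 with quantile and 39 with median scaling, 56 with the length and GC correction, 47 without trend and robust moderation, 2 with a mean of at least 5, 5 and 0 with the smaller pseudocounts, and 4 to 593 with a library left out (593 without NC 3). With the replicate number as a block 0 of the 9 genes, 0 of the lists and 0 of all genes passed. Deviations of same-numbered libraries had a Pearson r of -0.03, 0.02 and -0.01, which shows no pairing by number. With 3 libraries in each group and NC 3 apart, these values cannot exclude a pairing, and the labels do not state one.

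Signs turned as follows, and the cause was not tested. Under quantile scaling Ddb1 was at -0.17, Pcna at -0.18, Gmnn at -0.094, Mcm6 at -0.22, Mcm7 at -0.23, ENSMUST00000023829 of Cdkn1a at -0.029 and ENSMUST00000016681 of Cul4b at -0.000045. After the mitochondrial rescaling Cdkn1a was at -0.067, Ddb1 at -0.14, Pcna at -0.10, Gmnn at -0.15, Ercc5 at -0.14, Mcm6 at -0.25, Mcm7 at -0.20, ENSMUST00000023829 at -0.11 and ENSMUST00000016681 at -0.13. With the length and GC correction Cdkn1a was at -0.16, Gmnn at -0.22, Brwd3 at 0.00996, Pold4 at -0.15, Mcm7 at -0.0017 and Mmgt1 at 0.058. With single libraries left out Cdt1 ran from -1.53 (without tRF-Val 2) to 0.019 (without tRF-Val 3), Gmnn from -0.0094 (without NC 1) to 0.195, Mcm2 from -0.46 to 0.022 (without NC 1) and Mcm6 from -0.062 (without NC 3) to 0.074, also negative without tRF-Val 1 or tRF-Val 3. Without NC 3 the sign turned for Cdkn1a (-0.023 to 0.32), Kmt5a (-0.38 to 0.091), Ddb1 (-0.16 to 0.26), Mcm7 (-0.098 to 0.17), ENSMUST00000023829 (-0.022 to 0.26), ENSMUST00000119901 of Cdkn1a (-0.25 to 0.95) and ENSMUST00000016681 (-0.31 to 0.34). Of the Gmnn transcripts ENSMUST00000110382 ran from -0.69 to 0.032 (without tRF-Val 1), and ENSMUST00000175689 from -0.51 to 0.37, positive without NC 2 or tRF-Val 2.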

Other observations

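Of 5414 genes with a mean of at least 10 in NC, 3 had a mean under 1 in tRF-Val, and of 5266 genes with a mean of at least 10 in tRF-Val, 0 had a mean under 1 in NC. The 3 were Dtl, Mx2 and Gm49342, chosen after their values were seen. Mx2, an interferon-induced gene, was 25.1, 13.4 and 0.0223 in NC and 0, 0 and 0.444 in tRF-Val. Gm49342 was 0.000178, 53.8 and 0 in NC and was listed at 0 in each tRF-Val library. Both were therefore near or at 0 in at least 1 NC library too, whereas the values of Dtl in NC lay between 16.8 and 19.5. Of the 3, Dtl was the one whose groups did not overlap. Of the same 5414 genes, 5 were listed at 0 in at least 2 tRF-Val libraries. Of the 5266 genes, 0 were listed at 0 in at least 2 NC libraries.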
